A study of Mus musculus with 20 samples.

Results

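Stress-state B cells were the 3417 B cells, of 34057 B cells in the gate and 97181 cell barcodes kept in 20 mouse single-cell RNA-sequencing libraries, in which at least 2 of the transcripts Atf3, Plk2 and Hspb1 were detected. A barcode was kept with at least 1500 unique molecular identifiers (UMIs, counts of captured RNA molecules), at least 200 genes and at most 10% of its UMIs from mitochondrial genes. The B cell gate asked for at least 3 UMIs of Cd79a and Cd79b together, no UMI of Cd3d, Cd3e or Cd3g and fewer than 20 UMIs of Jchain. Of the stress-state cells 2937 had exactly 2 of the 3 transcripts and 480 had all 3. They were compared within each library with the 20606 gated B cells that had none of the 3, and the 10034 cells with exactly 1 were left out of that comparison.

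The libraries came from mice labelled C57BL/6N, although the methods of the study put the Eµ-TCL1 parents on C57BL/6 J, with transgenes driven by the Eµ enhancer of the immunoglobulin heavy chain locus, which is active in B cells. Of the libraries 5 spleens carried human PRMT5 (Eµ-PRMT5), 4 spleens and 3 lymph nodes carried human TCL1 (Eµ-TCL1), and 4 spleens and 4 lymph nodes carried both (Eµ-PRMT5/TCL1). All mice had met early removal criteria (ERC), no treatment is given in the labels, and the ages are not given in the sources used here. Unselected live cells were loaded, and 7 of the 13 mice gave both a spleen and a lymph node, so that the 20 libraries are not 20 independent animals. One spleen, Eµ-PRMT5 3, carries an animal number that the methods of the study use for a founder line. The total per library was 9348094 to 72440894 UMIs, and 784 to 8631 barcodes were kept, of which 212 to 5533 passed the B cell gate. Shared barcodes between kept cells of any pair of libraries were few, at most 1.82 times the number that the size of the barcode list would give. There was no library without a transgene, so every comparison is within or between diseased transgenic mice.

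Atf3 is a transcription factor of the ATF/CREB family that is induced rapidly by many kinds of cell stress. Plk2 is a serine/threonine kinase first described as an immediate early gene, and Hspb1 encodes a small heat shock protein that holds unfolded proteins. Immediate early genes such as Fos, Jun and Egr1 are transcribed within minutes of a stimulus without new protein synthesis, whereas heat shock genes are switched on by heat shock factor when misfolded protein accumulates. Both programmes can be induced while tissue is dissociated, and immediate early genes also follow signalling through the B cell receptor.

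The 3 transcripts chose the cells, and their levels are a description. In summed counts of all gated B cells, Atf3 stood between 18.9 and 704 CPM (UMIs of the gene per 1000000 UMIs of the sum) over the 20 libraries, with a median of 150. Plk2 ran from 0.295 to 258 CPM with a median of 16.3, and Hspb1 from 2.65 to 490 CPM with a median of 24.3. T cells of the same libraries, defined by at least 3 UMIs of the Cd3 genes and no Cd79a or Cd79b, had medians of 13, 5.16 and 1.48 CPM for Atf3, Plk2 and Hspb1. Barcodes with 10 to 100 UMIs, which hold mostly RNA free in the suspension, had medians of 97.1, 14.4 and 33.7 CPM. Both the B cell gate and these low-UMI barcodes thus held more of each transcript than T cells did, by their medians.

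The rule has a threshold on the number of transcripts seen. Cells with 1 of the 3 had a median of 2 UMIs over the 3 transcripts and 6671 UMIs in all, cells with 2 had 6 and 7782, cells with all 3 had 14 and 7757.5, and cells with none had 5231.5 UMIs in all. The stress-state cells were thus deeper than the cells with none in 20 of 20 libraries, by 1.22 to 1.97 times in median UMIs. Since a deeper cell shows more transcripts, shares were compared after each cell had been thinned at random to 1500 UMIs, and the gene comparison was repeated against cells with none that were matched on UMIs.

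Krt8, a keratin of simple epithelia that had been listed as a marker of these cells, was not specific to them. After thinning, a Krt8 UMI was found in 0% to 59.3% of the stress-state cells of a library and in 0% to 49.9% of the cells with none. It was more frequent in the stress-state cells in 12 of the 17 libraries that entered the gene comparison. In T cells the share was at most 0.314%, which can be too low for free RNA, since T cells with a Cd79a or Cd79b UMI were left out. In summed counts the medians of Krt8 were 63.9 CPM in gated B cells, 0.119 CPM in T cells and 47.9 CPM in low-UMI barcodes. How much of the Krt8 seen in B cells of either class is free RNA was not tested. Of the 10 genes of the keratin and epithelial list, Krt18 and Epcam passed the filter on low counts, and neither was called, at log2 -0.09 and -0.01, a median of -0.05.

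Which of the 3 transcripts made up the state differed from library to library. In Eµ-TCL1 lymph node 3, 98.9% of the stress-state cells had Atf3, 97.9% had Plk2 and 7.28% had Hspb1. In Eµ-PRMT5 spleen 4 the 142 cells had Atf3 in 96.5%, Plk2 in 8.45% and Hspb1 in 100%. In Eµ-TCL1 spleen 2, which alone gave 1318 cells or 38.6% of the total, 77.1% had Atf3, 61.5% had Plk2 and 85.8% had Hspb1, and 24.4% had all 3. The lymph node of the same mouse was alike, with 72.0%, 68.3% and 78.9% and all 3 in 19.3% of 161 cells. Spleen 2 and lymph node 4 of the Eµ-PRMT5/TCL1 group, again from 1 mouse, both joined Atf3 with Hspb1 and had Plk2 in 3.70% and 4.17% of their cells. The mouse M0955-RT was alike too, with Plk2 in 17.6% and Hspb1 in 85.3% of its lymph node cells and in 11.1% and 88.9% of its spleen cells, and in M0322 and M0244 both tissues joined Atf3 mainly with Plk2. In the other 2 mice with both tissues the composition was unlike. The mouse M0980 had Plk2 in 13.3% and Hspb1 in 100% of 15 lymph node cells but in 69.4% and 45.5% of 222 spleen cells, and the mouse M1040 had them in 81.8% and 27.3% of 22 lymph node cells and in 57.1% and 68.6% of 35 spleen cells. Cells chosen by 1 rule thus joined Atf3 mainly with Plk2 in some libraries and mainly with Hspb1 in others. The levels in the whole library differed too. In Eµ-TCL1 lymph node 3, Plk2 and Hspb1 stood at 258 and 6.60 CPM in all gated B cells and at 193 and 20.3 CPM in low-UMI barcodes. In Eµ-PRMT5 spleen 4 they stood at 1.99 and 109 CPM and at 6.70 and 69.7 CPM. Whether composition follows these levels was not tested. Some libraries named here, Eµ-PRMT5 spleen 4 among them, had a share of stress-state cells not clearly above that of T cells, as given below.

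**Figure D1:**
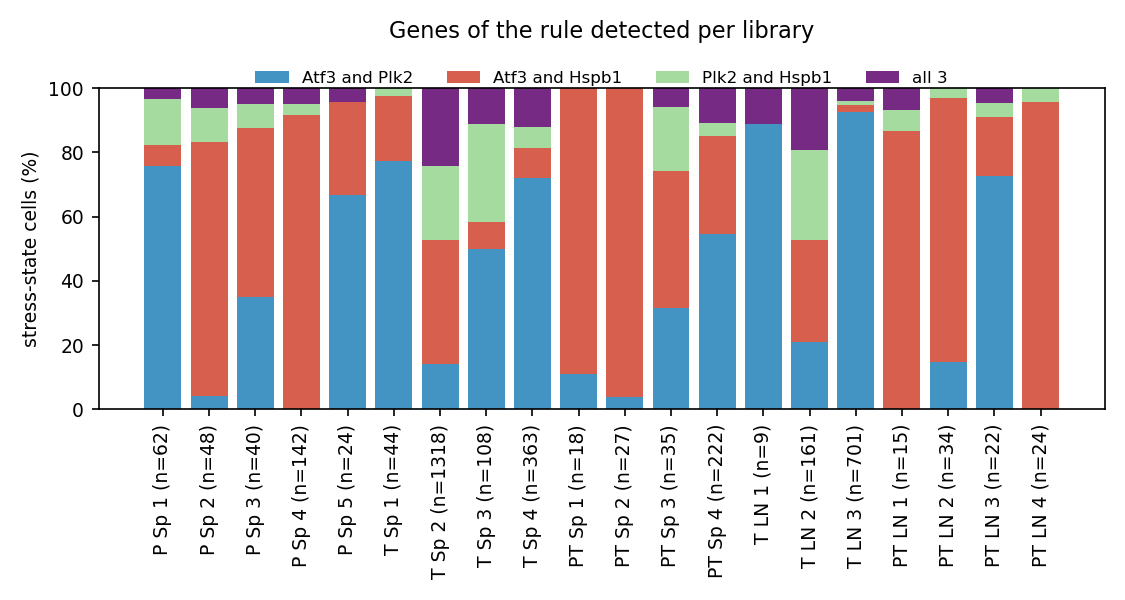
Stress-state cells of each library (bars, with the number of cells) divided by which of the 3 transcripts they held, in percent of the stress-state cells; P is Eµ-PRMT5, T is Eµ-TCL1, PT is Eµ-PRMT5/TCL1, Sp is spleen and LN is lymph node. Atf3 with Plk2 fills most of T LN 3, and Atf3 with Hspb1 fills most of P Sp 4, PT Sp 2 and PT LN 4.

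Between genotypes and tissues no difference in the share of stress-state cells passed the test, with groups this small. After thinning the share was 3.75% ± 3.19 (SD, n = 4) in Eµ-TCL1 spleens, 1.81% ± 2.15 (SD, n = 5) in Eµ-PRMT5 spleens and 1.34% ± 1.32 (SD, n = 4) in Eµ-PRMT5/TCL1 spleens. Among the lymph nodes it was 5.23% ± 5.18 (SD, n = 3) in Eµ-TCL1 and 0.8% ± 0.665 (SD, n = 4) in Eµ-PRMT5/TCL1 mice. The Eµ-TCL1 spleens held 0.994%, 8.17%, 1.91% and 3.92%, and the Eµ-TCL1 lymph nodes 0.943%, 3.77% and 11%. The Eµ-PRMT5 spleens held 1.12%, 5.63%, 0.630%, 0.566% and 1.08%, so that 1 spleen of this group lay far above the other 4. The Eµ-PRMT5/TCL1 spleens held 0.0959%, 2.98%, 0.469% and 1.81%, and the lymph nodes 0.685%, 0.385%, 1.77% and 0.359%. The groups overlapped in every pair compared.

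The tests on these shares were two-sided exact permutation tests over libraries, with Benjamini-Hochberg adjustment over the 5 comparisons. The smallest p that each allows is 0.0156 to 0.0571, so no single comparison could by itself have passed 0.05 after adjustment. Eµ-PRMT5 spleens lay 1.94 percentage points below Eµ-TCL1 spleens (exact permutation p = 0.365, adjusted p = 0.609). Eµ-PRMT5/TCL1 spleens lay 2.41 points below Eµ-TCL1 spleens (exact permutation p = 0.200, adjusted p = 0.5) and 0.468 points below Eµ-PRMT5 spleens (exact permutation p = 0.841, adjusted p = 0.922). The Eµ-PRMT5/TCL1 lymph nodes differed from the Eµ-TCL1 lymph nodes by -4.43 points (exact permutation p = 0.114, adjusted p = 0.5), where 3 libraries against 4 cannot give a p below 0.0571. In the 7 mice with both tissues, the lymph node exceeded the spleen in 3, with a mean difference of 0.0650 points (exact sign-flip permutation p = 0.922, adjusted p = 0.922). The mouse M0322 had 11% in the lymph node and 3.92% in the spleen, and the mouse M0228 had 3.77% and 8.17%. Leaving out M0322 turned the mean difference to -1.10 points.

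Single libraries moved several of these differences. Without Eµ-TCL1 spleen 2 the difference from Eµ-TCL1 spleens was -0.470 points for Eµ-PRMT5 and -0.938 points for Eµ-PRMT5/TCL1 spleens, and without Eµ-PRMT5 spleen 2 the Eµ-PRMT5/TCL1 spleens lay 0.489 points above the Eµ-PRMT5 spleens in place of below them. Without Eµ-TCL1 lymph node 3 the lymph nodes differed by -1.55 points. In cells that were not thinned the 4 differences between genotypes were, in the order above, -3.78, -7.50, -3.71 and -14.7 points, and none passed the exact permutation test.

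T cells give an estimate of how often free RNA, with any expression in T cells, brings 2 of the 3 transcripts into a cell. For free RNA it can be too low, since T cells with a Cd79a or Cd79b UMI, as free RNA of B cells would give, were left out. A higher B cell share thus does not by itself show expression above free RNA. After thinning, 0% to 0.903% of the T cells met the rule, and the B cell share was higher in 19 of 20 libraries. In 14 of them the lower end of the 95% Wilson interval of the B cell share, which covers counting error only, lay above the T cell share, where a T cell share of 0 was set to the limit that 3 counts allow. The exception to the higher share was Eµ-PRMT5/TCL1 spleen 1, with 0.0959% of 5213 B cells and 0.562% of 178 T cells. Its T cell share rests on 1 cell. Eµ-PRMT5 spleen 3 had 0.630% of B cells and 0.627% of T cells. The lower end did not lie above the T cell share or its limit in these spleens. The same held for Eµ-PRMT5 spleen 4 and for lymph nodes 1, 2 and 4 of the Eµ-PRMT5/TCL1 group. No expression above background is read from the B cell share in any of these libraries. Apart from that lymph node 1 and Eµ-PRMT5/TCL1 spleen 1, they still entered the gene comparison below. Without thinning the B cell shares ran from 0.345% to 32.5% and the T cell shares from 0% to 2.11%, at median depths per library of 5135.5 to 22645 UMIs in stress-state cells and 2821 to 6002 in T cells.

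**Figure D2:**
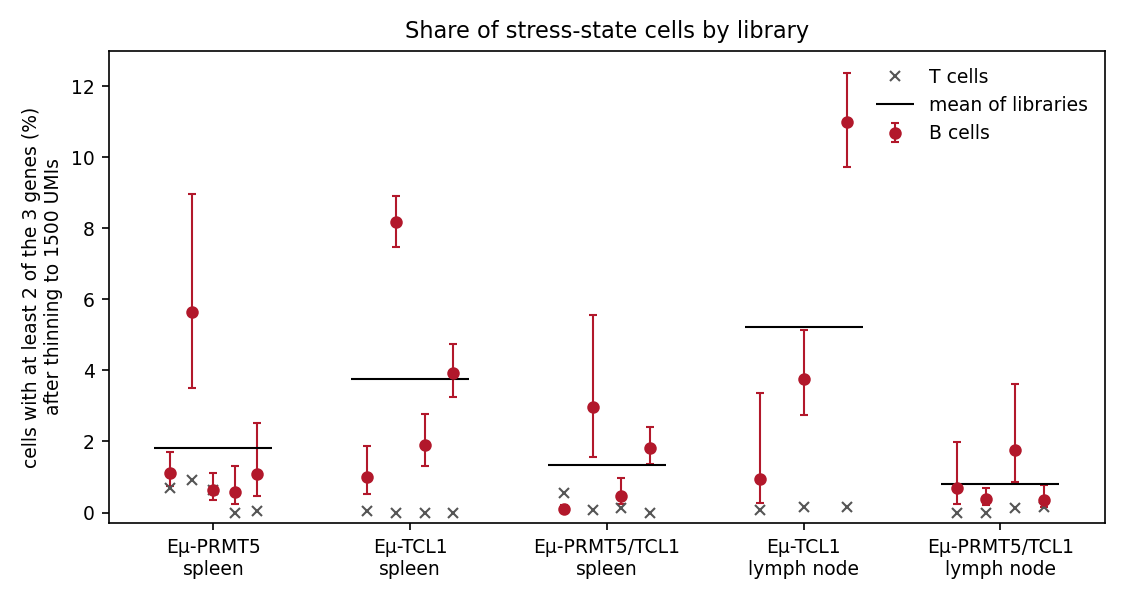
Percent of gated B cells (circles, with 95% Wilson intervals) and of T cells (crosses) with at least 2 of Atf3, Plk2 and Hspb1 after thinning to 1500 UMIs, for each library, with the mean of the libraries as a line. The highest B cell shares were 11% in an Eµ-TCL1 lymph node and 8.17% in an Eµ-TCL1 spleen, and the groups overlap.

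Genes that moved with the stress state were sought in 17 libraries from 13 mice with at least 20 cells of each class. The libraries below that number were Eµ-TCL1 lymph node 1, Eµ-PRMT5/TCL1 lymph node 1 and Eµ-PRMT5/TCL1 spleen 1, with 9, 15 and 18 stress-state cells. Counts were summed per library and class and fitted with edgeR's quasi-likelihood test with the library as a block, leaving out the genes of the rule and of the gate. Of 9278 genes tested, 1467 were higher (15.8% called) and 1443 lower (15.6% called) in the stress-state cells at an adjusted p under 0.05, and 31.4% were called in either direction. Against cells matched on UMIs, a match that stayed incomplete in Eµ-TCL1 lymph node 3 (median 8507 against 5612 UMIs), Eµ-PRMT5 spleen 4 (22645 against 18865) and Eµ-TCL1 spleen 2 (6591.5 against 5844.5), 1014 of 5597 genes were higher (18.1%) and 1102 lower (19.7%). The shares of 18.1% and 19.7% are those to set beside the matched counts of every list below. Without Eµ-TCL1 spleen 2, the library with the most cells, 1211 of 8639 genes were higher (14%) and 1277 lower (14.8%). Of the 15 genes with the largest increase under the rule for named genes, which asks for the same direction in most libraries, 4 were on the heat shock list, 7 on the immediate early list and 4 on neither (Maff, Rasd1, Phlda1 and Tagap). Their log2 changes ran from 1.83 to 4.44, and those of the 15 genes with the largest decrease under the same rule from -1.24 to -0.64.

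Of single genes, the heat shock genes Hspa1a and Hspa1b had the largest increase. The heat shock group is not independent of the rule in kind, since Hspb1, a heat shock gene, helped to choose the cells. Hspa1a, an inducible Hsp70 chaperone, had 69.8 to 3661 CPM in the stress-state cells of the 17 libraries, with a median of 429, and 0.771 to 229 CPM with a median of 23.2 in the cells with none. It was higher in 17 of 17 libraries, although the ranges over libraries overlap, and the log2 change was 4.44 ± 0.38 (SE; edgeR adjusted p = 1.24e-09). Its near-identical copy Hspa1b, for which 3′ reads can be divided arbitrarily or lost, changed by 4.03 ± 0.21 (SE; edgeR adjusted p = 7.15e-14), also in 17 of 17 libraries. The lowest increase of Hspa1a was in Eµ-PRMT5 spleen 5, with 195 CPM in the stress-state cells and 165 CPM in the cells with none.

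Several cochaperones of Hsp70 rose too, and rises on the list differed in size, with Stip1 and Hspa4 at only log2 0.51 and 0.19. Hsph1, a nucleotide exchange factor for Hsp70, rose by log2 2.10 ± 0.18 (SE), in 17 of 17 libraries. Dnajb1, an Hsp40 partner of Hsp70, stood at 501 ± 368 CPM (SD, n = 17) against 105 ± 59.6, a log2 change of 2.04. Dnaja1 and Bag3 rose by log2 1.27 and 1.77, and Hspa8, the constitutive Hsp70, by 0.87. Of the 20 heat shock genes listed, 18 were tested, 17 were higher (94.4%, beside 15.8% over all genes tested) and none lower, with a median log2 change of 0.85 against -0.03 over all genes tested. The gene not called was Fkbp4, at log2 0.06. Against cells matched on UMIs the median was 0.72, with 16 of 18 higher.

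Promoter sequences show how often a heat shock element lies upstream of these genes. The element was searched as GAANNTTC, which reads the same on both strands, in the 250 bases before each RefSeq transcription start of GRCm38.p6. It was found in 6 of 21 promoters of 15 matched heat shock genes (28.6%), in 6.02% of 1445 promoters of the genes called higher, in 4.91% of 1506 promoters of the genes called lower, in 5.01% of 9563 promoters of all genes tested and in 6.69% of all 32851 promoters. Each window shown is 30 bases with the element in capitals, and are shown because these genes led or belonged to the heat shock group. The windows of Hspa1a and Hspa1b are the same letters, and those of Hspd1 and Hspe1 are the 2 strands of 1 promoter shared by both genes.
Hspa1a, GRCm38.p6 chr17:34972242-34972271, minus strand: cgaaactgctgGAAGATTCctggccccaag
Hspa1b, GRCm38.p6 chr17:34959324-34959353, minus strand: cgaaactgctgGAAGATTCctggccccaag
Dnaja1, GRCm38.p6 chr4:40722333-40722362, plus strand: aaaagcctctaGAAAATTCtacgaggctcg
Hspd1, GRCm38.p6 chr1:55088053-55088082, minus strand: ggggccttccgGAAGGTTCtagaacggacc
Hspe1, GRCm38.p6 chr1:55088053-55088082, plus strand: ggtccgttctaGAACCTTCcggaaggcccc
Fkbp4, GRCm38.p6 chr6:128438789-128438818, minus strand: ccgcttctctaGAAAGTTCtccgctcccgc
Fkbp4, the tested heat shock gene that was not called, held the element too.

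Immediate early genes had the highest median of the lists. Fos, a subunit of the AP-1 transcription factor, had 102 to 3683 CPM in the stress-state cells with a median of 450, and 5.40 to 778 CPM with a median of 44.0 in the cells with none. It was higher in 17 of 17 libraries with a log2 change of 3.12 ± 0.23 (SE; edgeR adjusted p = 1.62e-10). Nr4a1, an orphan nuclear receptor induced by B cell receptor signalling, had 160 to 4425 CPM with a median of 578 against 21.6 to 1596 CPM with a median of 134. Its log2 change was 2.20 ± 0.18 (SE), again in 17 of 17 libraries. The levels in both classes varied widely between libraries, and Eµ-PRMT5 spleen 1 had more Fos in its cells with none (778 CPM) than 10 libraries had in their stress-state cells.

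The zinc finger factor Klf4 rose by log2 2.41 and the AP-1 subunit Fosb by 2.22. Maff, a small Maf factor, rose by 2.34, Dusp1, a phosphatase that ends MAP kinase signalling, by 2.01, and Egr2 and Egr1 by 2.02 and 1.96. Jun, Klf6, Cd69 and Myc rose by 1.58, 1.63, 1.56 and 1.5, each in 17 of 17 libraries. Of the 25 immediate early genes listed, all were tested, 23 were higher (92%, beside 15.8% over all genes tested) and none lower, with a median log2 change of 1.51. Btg2 and Rgs2 were not called, at log2 0.19 and 0.15. Against matched cells 20 of 20 tested members were higher with a median of 1.55. The list is not independent of the rule in kind, since Atf3 and Plk2 are themselves often counted among immediate early genes.

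A cyclic AMP response element, the palindrome TGACGTCA bound by ATF and CREB factors, lay in 4.29% of the 1445 promoters of genes called higher, in 2.39% of the 1506 promoters of genes called lower and in 1.55% of all promoters. The AP-1 letters TGANTCA were in 3.32% of promoters of genes called higher, 4.91% of those called lower and 6.75% of all promoters, and the C/EBP-ATF letters TGATGNAA in 1.94%, 2.32% and 3.45%. Genes tested here had their own shares of 2.71%, 4.08% and 1.98% for these 3 motifs. Among the 15 genes with the largest increase 12 had promoter sequence, the response element was found for 2 of these, and their windows are shown with it in capitals.
Maff, GRCm38.p6 chr15:79347480-79347509, plus strand: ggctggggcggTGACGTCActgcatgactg
Dusp1, GRCm38.p6 chr17:26508597-26508626, minus strand: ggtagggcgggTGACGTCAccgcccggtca
The immediate early list had sequence for 19 of its 25 genes, under 80%, so its own share is not given.

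**Figure D3:**
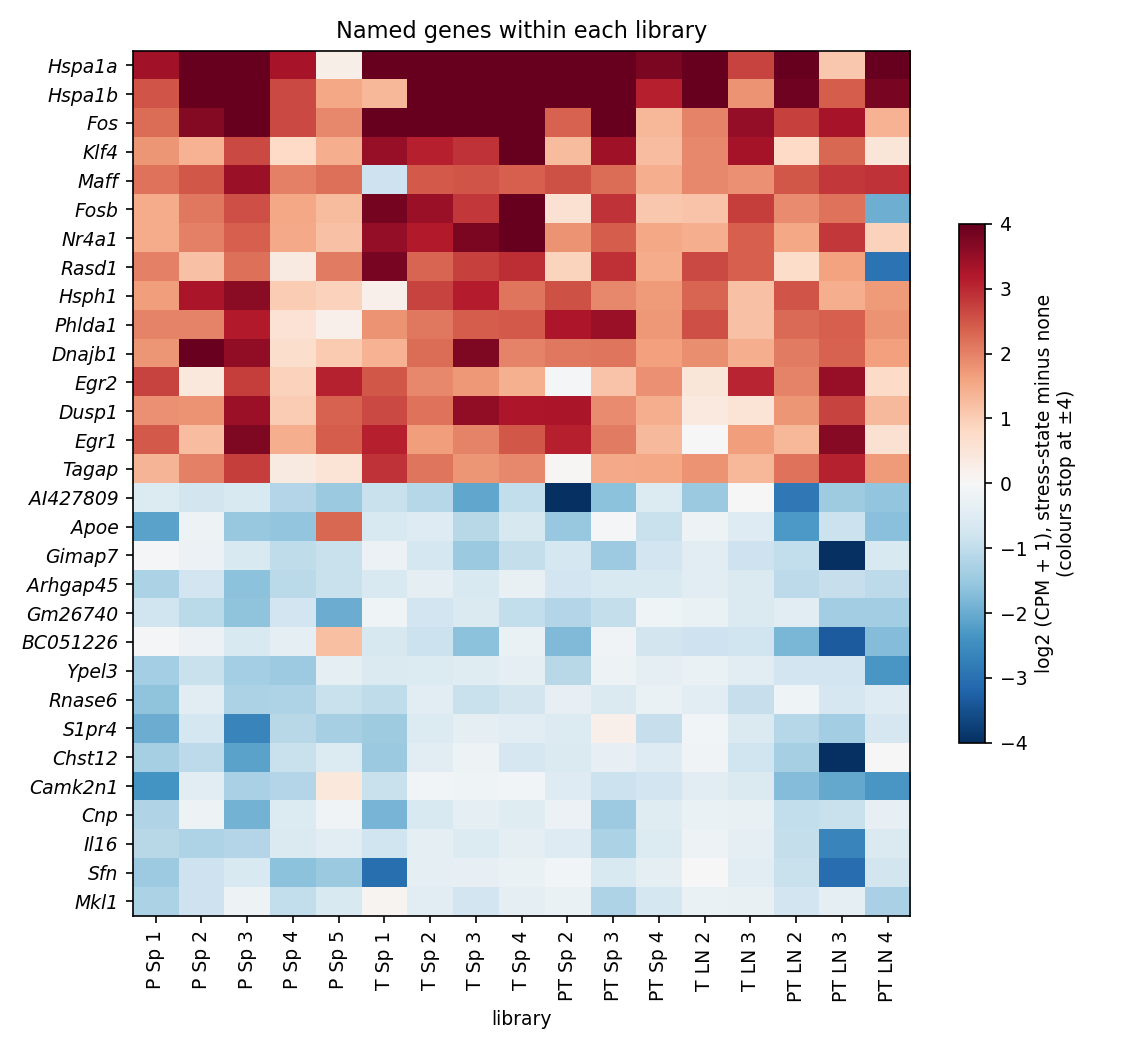
Difference in log2 (CPM + 1) between stress-state cells and cells with none, for each of 17 libraries (columns, abbreviated as in the plot of transcripts held) and for the 15 genes with the largest increase and the 15 with the largest decrease (rows). Hspa1a, Hspa1b and Fos were higher in 17 of 17 libraries, and Arhgap45 was lower in 17 of 17.

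Other stress programmes moved in part. Of 20 tested genes of the integrated stress response, which follows phosphorylation of the initiation factor eIF2α, 8 were higher (40%, beside 15.8% over all genes tested) and 2 lower, with a median of 0.24. Against matched cells 7 of 18 were higher and 5 lower, beside 18.1% and 19.7% over all genes there, with a median of 0.23. Those that rose most were Ppp1r15a (log2 1.58), a regulatory subunit of the phosphatase that removes that phosphate, and the transcription factors Ddit3 (1.1) and Atf4 (1.06). Atf4 stood at 871 ± 235 CPM (SD, n = 17) against 411 ± 145. The amino acid synthesis genes Phgdh and Aldh18a1, also targets of Atf4, were lower by log2 -0.29 and -0.42, and Asns and Psat1 were not called at 0.09 and -0.05.

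The unfolded protein response list had 4 of 15 genes higher (26.7%, beside 15.8% over all genes tested) and none lower, with a median of 0.05. These were Dnajb9 (log2 1.14), Hspa5 (0.81), Herpud1 (0.34) and Edem1 (0.26, and 0.01 in matched cells), while Xbp1, Calr and Hsp90b1 were not called at -0.04, 0.10 and 0.02. The call of Edem1 was lost in matched cells, with sums per mouse (0.20) and with at least 50 cells of each class (0.23). It was also lost without a filter on low counts (0.23) and without Eµ-TCL1 spleen 2 (0.26). Against matched cells the median turned to -0.10, with 3 of 15 higher, near the 18.1% over all genes there, and 1 lower. Of 14 tested p53 targets, 4 were higher (28.6%, beside 15.8% over all genes tested) and 1 lower. Pmaip1, a BH3-only protein of apoptosis, rose by 1.66 and Mdm2 and Cdkn1a by 0.47 and 0.43, whereas Bax and Ccng1 were not called at -0.12 and -0.17. The median of the p53 list was 0.09 and turned to -0.01 without Eµ-TCL1 spleen 2.

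The oxidative stress and metal response list had 4 of 13 genes higher (30.8%, beside 15.8% over all genes tested) and none lower, with a median of 0.08. These were Hmox1 (log2 1.00, and 0.54 in matched cells), Mt2 (0.99), Mt1 (0.99) and Sqstm1 (0.26). The call of Sqstm1 was lost with at least 50 cells of each class (0.14), with all 3 transcripts (0.15) and without a filter on low counts (0.22). With a library left out its edgeR adjusted p ran up to 0.0659. Against matched cells 4 of 11 were higher and 2 lower, beside 18.1% and 19.7% over all genes there, with a median of 0.07. Feedback genes of NF-kB had 9 of 14 higher (64.3%) and 1 lower (7.14%), with a median of 0.66. The inhibitor Tnfaip3 rose by 1.13, Cd83 by 1.00 and Nfkbia by 0.66, and Bcl3 was lower by -0.35. In matched cells 9 of 13 of these feedback genes were higher and 0 lower, with a median of 0.63. In the Bcl2 family Mcl1, an antiapoptotic member, rose by 0.36, while Bcl2 and Bid were lower by -0.38 and -0.43. Bcl2a1b, which shares sequence with its paralogs, was called at 0.25, but not in matched cells (0.12), with at least 50 cells of each class (0.17), without a filter on low counts (0.22) or by DESeq2 (0.27). Of the 9 tested, 2 were higher and 2 lower, shares near those over all genes tested (15.8% and 15.6%), with a median of 0.08 that turned to -0.04 against matched cells.

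**Figure D4:**
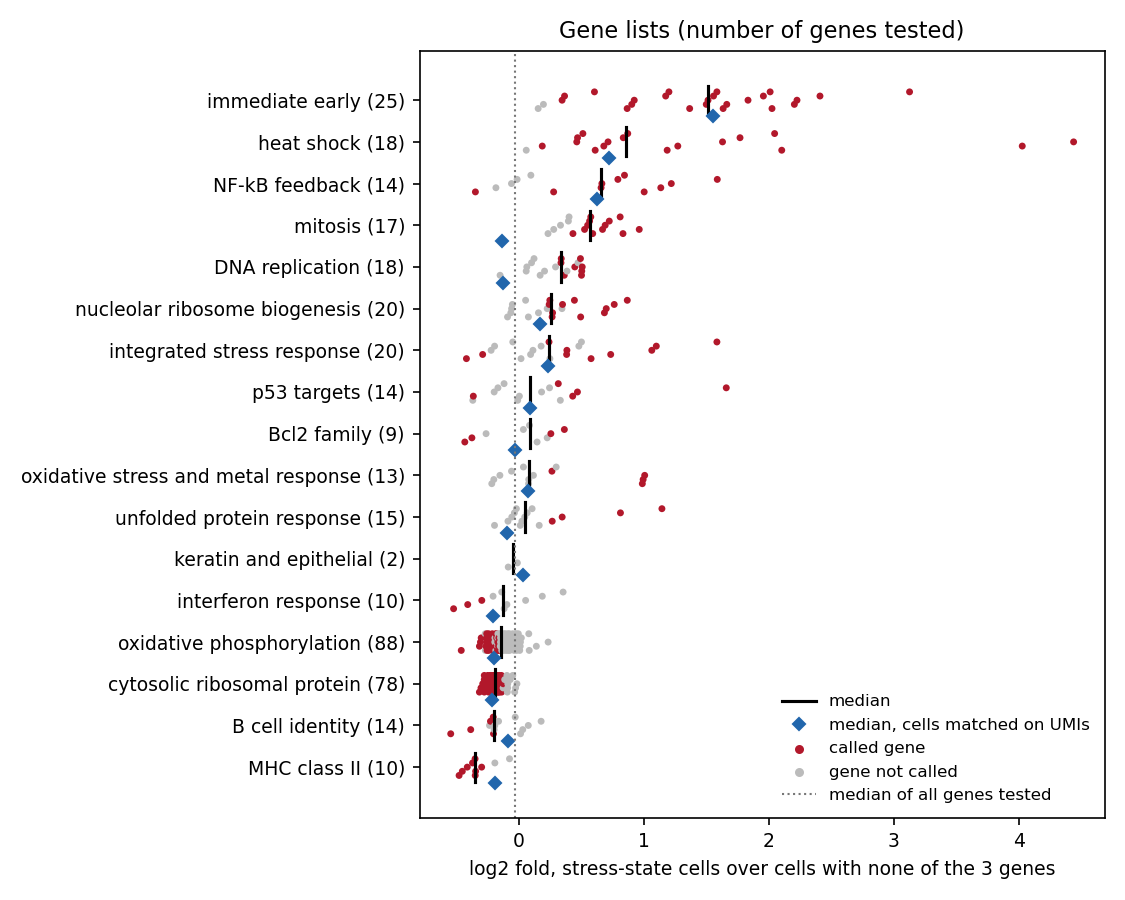
Log2 change of each tested gene (points, red where called at an adjusted p under 0.05) in the 17 lists, with the list median as a black bar, the median against cells matched on UMIs as a diamond, and the median of all genes tested as a dotted line. The immediate early and heat shock medians are the highest at 1.51 and 0.85, and those of mitosis and DNA replication move below 0 in matched cells.

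Part of the growth and cell cycle genes rose in the unmatched comparison. Nucleolar ribosome biogenesis had 11 of 20 genes higher and none lower, with a median of 0.25, led by Gnl3 (log2 0.87), Nop58 (0.76) and Nop56 (0.70), and in matched cells 8 of 18 were higher. Mitosis had 12 of 17 higher with a median of 0.56, and DNA replication 8 of 18 higher with a median of 0.34, so that the shares higher in these 3 lists, in the order given, were 55%, 70.6% and 44.4% beside 15.8% of all genes tested. The mitosis and DNA replication lists did not keep their calls when depth was matched. Of 7 mitosis genes tested against matched cells none was called, with a median of -0.14. Of 14 DNA replication genes 1 was higher and 2 were lower, with a median of -0.13. The share of cells with a UMI of Mki67 or Top2a, measured in cells thinned to 1500 UMIs, was 8.55% in stress-state cells and 6.24% in cells with none over 13 mice, a difference of 2.31 points ± 3.91 (SD, n = 13), higher in 9 of 13 mice (exact sign-flip permutation p = 0.0474, adjusted p = 0.0714). Against matched cells the difference was -1.14 points. The adjusted p fell to 0.0496 without E4474, to 0.0440 without M0299 and to 0.0423 without M0701, with differences of 2.62, 2.66 and 2.68 points.

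Most ribosomal protein genes and part of the respiration genes were lower. Of 78 cytosolic ribosomal protein genes none was higher and 67 were lower (85.9%, beside 15.6% over all genes tested), with a median of -0.19, and in matched cells 75 of 78 were lower with a median of -0.21. The ribosomal share of UMIs was 23.1% in stress-state cells and 25.5% in cells with none, a difference of -2.42 points ± 2.52 (SD, n = 13), higher in 1 of 13 mice (exact sign-flip permutation p = 9.77e-04, adjusted p = 0.00244). Of 88 oxidative phosphorylation genes 31 were lower (35.2%, beside 15.6% over all genes tested) and none higher, with a median of -0.15, and in matched cells 52 of 82 were lower with a median of -0.20. The mitochondrial share of UMIs was 3.56% against 4.19%, a difference of -0.629 points ± 0.299 (SD, n = 13), lower in 13 of 13 mice (exact sign-flip permutation p = 2.44e-04, adjusted p = 0.00122). That p is the smallest that 13 mice can give.

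Of the B cell identity genes some were lower and most were not called. Cd52, a surface glycoprotein of lymphocytes, stood at 1549 ± 559 CPM (SD, n = 17) against 2139 ± 635, a log2 change of -0.55, and was lower in 17 of 17 libraries. Fcmr, Cd37 and Ms4a1 changed by -0.39, -0.23 and -0.21, of which Cd37 (-0.10) and Ms4a1 (-0.09) were not called in matched cells, and Pax5 and Ebf1, which specify the B lineage, were not called at 0.07 and 0.03. In all 5 of 14 identity genes were lower (35.7%, beside 15.6% over all genes tested) and none higher, with a median of -0.20. In matched cells the median was -0.09, with 3 of 14 lower, near the 19.7% over all genes there, and 1 higher. MHC class II, which presents antigen, had 8 of 10 genes lower (80%) and none higher, with a median of -0.35, and in matched cells 7 of 10 were lower with a median of -0.20. Cd74 fell by 0.35 and H2-Aa by 0.35 on the log2 scale, and in matched cells by 0.17 and 0.20. Of 10 tested interferon response genes 3 were lower (30%, beside 15.6% over all genes tested) and none higher, with a median of -0.13. In matched cells 4 of 9 were lower with a median of -0.21, and without Eµ-TCL1 spleen 2 the number lower was 2. Ifi47 was among the lower ones at -0.52, in 16 of 17 libraries.

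The genes with the largest decrease were of several kinds. Under the rule for named genes AI427809, Apoe and Gimap7 led, at log2 -1.24, -0.84 and -0.83. Arhgap45, a GTPase-activating protein of leukocytes, had 92.7 to 373 CPM in the stress-state cells with a median of 198, and 175 to 572 CPM with a median of 312 in the cells with none. It was lower in 17 of 17 libraries by log2 -0.82 ± 0.07 (SE; edgeR adjusted p = 1.28e-09), and by -0.65 in matched cells. Ypel3, S1pr4, a receptor for sphingosine 1-phosphate, and Il16, a cytokine precursor, changed by -0.79, -0.76 and -0.71. Ighd, the constant gene of IgD, was outside the rule for naming genes and was chosen after its values were seen. It stood at 38.7 ± 28.2 CPM (SD, n = 17) against 74.7 ± 63.6 and was lower in 17 of 17 libraries, by log2 -0.85, whereas Ighm was not called at -0.04.

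Levels of Fos, Hspa1a, Nr4a1 and Ighd, a choice made after their values were seen, were set against the number of transcripts seen. The median of Fos over 17 libraries was 44.0 CPM in cells with none of the 3, 100 CPM with 1 and 393 CPM with 2, and 879 CPM with all 3 in the 5 libraries with at least 20 such cells. Hspa1a stood at 23.2, 60.5, 216 and 941 CPM, and Nr4a1 at 134, 294, 589 and 860 CPM. The median of Ighd went the other way, with 50.2, 43.5, 32.4 and 27.4 CPM. Within libraries the step from 1 to 2 transcripts was upward for Fos in 15 of 17, for Hspa1a in 16, for Nr4a1 in 13 and for Ighd in 1. From 2 to 3 transcripts Ighd rose in Eµ-TCL1 lymph node 3 (19.2 to 27.4 CPM) and Eµ-TCL1 spleen 4 (32.4 to 49.9 CPM). It fell or barely changed in the other libraries with such cells. The medians of Maff and Arhgap45 did not keep 1 direction, going from 37.4 to 28.1 CPM and from 198 to 213 CPM between 2 and 3 transcripts. Since the 5 libraries are a subset, the last value of each series does not compare the same mice.

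**Figure D5:**
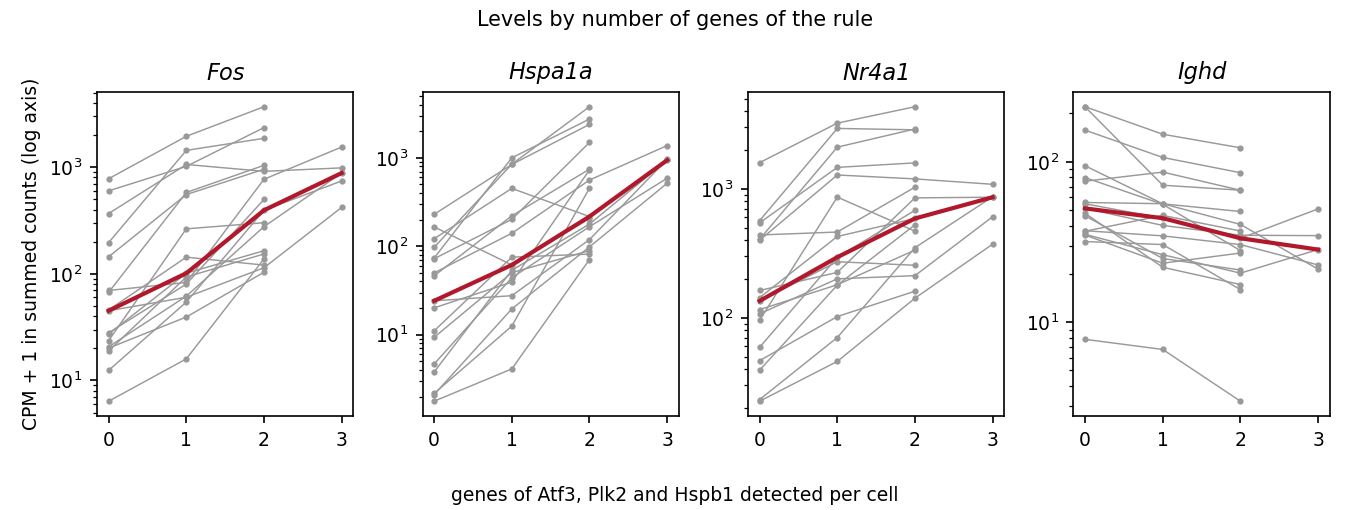
CPM + 1 on a log axis in summed counts of cells with 0, 1, 2 or 3 of Atf3, Plk2 and Hspb1 detected, for 4 genes, with a grey line per library and the median in red. Median Hspa1a goes from 23.2 CPM at 0 to 216 CPM at 2, and median Ighd from 50.2 to 32.4 CPM.

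Clonal composition was read from the heavy chain V gene of each cell, among cells with at least 3 Ighv UMIs. The leading gene of a library was the Ighv gene with the most UMIs in its cells with none. That choice favours the cells with none where no single clone fills a library. A difference below 0, and its p-value, is thus not by itself evidence of a clonal difference. The leading Ighv gene of the library was carried by 62.1% of stress-state cells and 70.4% of cells with none over 13 mice, a difference of -8.30 points ± 14.1 (SD, n = 13), higher in 5 of 13 mice (exact sign-flip permutation p = 0.0571, adjusted p = 0.0714). The difference rested on a few libraries. In Eµ-PRMT5 spleens 1 and 2, which are part of the mean, the leading gene marked no large clone, with 0% of stress-state cells and 2.97% and 1.71% of cells with none. In Eµ-PRMT5/TCL1 spleen 3 it was 53.1% of 32 stress-state cells against 97.1% of 996 cells with none, in Eµ-PRMT5 spleen 3 it was 8.82% against 47.9%, and in Eµ-PRMT5 spleen 5 it was 33.3% against 61.9%. In Eµ-TCL1 spleens 1, 2 and 4 97.9% to 100% of the stress-state cells carried it, the V gene that also filled the cells with none there. Without M0955-RT the adjusted p was 0.0415 at -9.51 points.

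A change for each genotype and tissue was fitted in 1 model of all libraries of the gene comparison, with a shared estimate of the spread. The number of genes called was 910 higher (9.81%) and 578 lower (6.23%) in Eµ-TCL1 spleens, and 382 higher (4.12%) and 250 lower (2.69%) in Eµ-PRMT5 spleens. In the double transgenic mice 69 were higher (0.744%) and 8 lower (0.0862%) in spleens, and 45 (0.485%) and 19 (0.205%) in lymph nodes. In Eµ-TCL1 lymph nodes 13 were higher (0.14%) and none lower (0%). The groups differ in their number of libraries and cells, with 2 libraries in the last case, so these numbers do not compare the groups. The test of the difference itself called few genes. Of 9278 genes it called 1 (0.0108%) when the Eµ-PRMT5 spleens were set against the Eµ-TCL1 spleens, with 572 (6.17%) at an unadjusted p under 0.05. It called 2 (0.0216%) for double transgenic against Eµ-TCL1 spleens, with 485 (5.23%) unadjusted. For double transgenic against Eµ-PRMT5 spleens and for the lymph nodes edgeR called none (0%), with 370 and 412 genes at an unadjusted p under 0.05 (3.99% and 4.44%), and DESeq2 called none either.

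Nr4a1 was the gene whose change was called different in spleens with PRMT5 alone and with TCL1 alone. It rose by log2 3.56 ± 0.25 (SE) in Eµ-TCL1 and by 1.74 ± 0.21 (SE) in Eµ-PRMT5 spleens, a difference of -1.82 ± 0.31 (SE; edgeR adjusted p = 0.0372). Its stress-state levels were 681, 201, 540 and 433 CPM in the Eµ-TCL1 spleens and 4425, 578, 2943, 334 and 981 CPM in the Eµ-PRMT5 spleens. In the cells with none it stood at 58.2, 21.6, 38.4 and 22.3 CPM in Eµ-TCL1 and at 1596, 142, 567, 115 and 438 CPM in Eµ-PRMT5 spleens. The cells with none did not overlap between these groups, so the smaller rise in Eµ-PRMT5 spleens began from a higher level. The call was lost when any 1 of 7 libraries was left out. The edgeR adjusted p was then 0.209, 0.139 and 0.411 without Eµ-TCL1 spleens 1, 3 and 4, and 0.220, 0.0760, 0.0511 and 0.279 without Eµ-PRMT5 spleens 1, 2, 4 and 5.

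When double transgenic spleens were set against Eµ-TCL1 spleens, Grasp, a scaffold protein, and Ccr9, a chemokine receptor, were called. Grasp rose by log2 2.35 ± 0.24 (SE) in Eµ-TCL1 spleens and changed by -0.40 ± 0.32 (SE) in Eµ-PRMT5/TCL1 spleens, a difference of -2.75 ± 0.39 (SE; edgeR adjusted p = 0.00203). It stood at 17.5, 21.1, 5.11 and 12.2 CPM in the stress-state cells of the 4 Eµ-TCL1 spleens against 2.31, 3.32, 2.33 and 1.92 CPM in the cells with none. The 3 Eµ-PRMT5/TCL1 spleens in the fit had 6.40, 5.84 and 20.8 CPM against 6.62, 2.81 and 30.9 CPM. In the stress-state cells of Eµ-PRMT5/TCL1 spleen 2 a single UMI is 3.20 CPM, so Grasp rests on few molecules there. Without Eµ-PRMT5/TCL1 spleen 4 the adjusted p was 0.944, and without Eµ-TCL1 spleen 2 it was 0.142. Ccr9 rose by 2.55 ± 0.47 (SE) in Eµ-PRMT5/TCL1 and changed by -0.51 ± 0.24 (SE) in Eµ-TCL1 spleens, a difference of 3.06 ± 0.52 (SE; edgeR adjusted p = 0.0177). It rests on few molecules, with 7, 9 and 12 UMIs in the stress-state cells of Eµ-PRMT5/TCL1 spleens 2, 3 and 4 and 0, 443, 5 and 18 UMIs in those of the Eµ-TCL1 spleens. Without Eµ-PRMT5/TCL1 spleen 2 the edgeR adjusted p was 0.0576.

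Markers of other cell types were read in the same sums. B cell markers, with the Cd79 genes of the gate among them, totalled 715 to 6211 CPM in the stress-state cells and 1403 to 7225 CPM in the cells with none, and were lower in the stress-state cells in 17 of 17 libraries. T cell markers totalled 12.8 to 205 and 16.8 to 221 CPM, and Trac, the constant gene of the T cell receptor alpha chain, was called higher by log2 0.79, in 13 of 17 libraries. The sums of natural killer markers were 0 to 10.3 and 0 to 21 CPM, with Ncr1 at 0 in every stress-state sum. Neutrophil markers ran from 0 to 10640 CPM in stress-state cells and from 0.321 to 7525 CPM in cells with none, and were higher in the stress-state cells in 7 of 17 libraries. Ngp and Camp, granule genes of neutrophil precursors that were named after their values were seen, were called lower at log2 -2.29 and -2.17, but in 11 and 10 of 17 libraries. Monocyte and macrophage markers totalled 229 to 787 CPM in stress-state cells and 357 to 939 CPM in cells with none, with Ctss lower, and plasma cell markers 405 to 2835 and 443 to 3216 CPM, with Sdc1 and Mzb1 lower. Dendritic cell markers totalled 38.5 to 187 and 49.1 to 193 CPM with none called, and stromal, endothelial and epithelial markers 31.2 to 159 and 34.9 to 179 CPM with Pecam1 lower. Erythroid markers ran from 0 to 5471 CPM in stress-state cells and from 0.643 to 1225 CPM in cells with none. They were higher in the stress-state cells in 4 of 17 libraries. Platelet markers ran from 0 to 1474 CPM and from 0 to 1.63 CPM, and were higher in the stress-state cells in 5 of 17. The highest stress-state sum of each type was in 1 Eµ-PRMT5/TCL1 spleen. Scrublet, which scores barcodes for 2 captured cells, marked 0% to 12.5% of the stress-state cells of a library and 0.336% to 5.73% of the cells with none. The part of free RNA and of doublets in the gene changes was not tested beyond leaving out the marked barcodes, after which 1445 genes were higher and 1638 lower. Col3a1, Krt5 and Krt14 were at 0 in every stress-state sum.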

How the data were processed

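Live cells of spleens and lymph nodes had been profiled by 10x Chromium 3′ v2 single-cell RNA sequencing, and the deposited UMI counts were used as the authors gave them, as 1 unfiltered count matrix of 31053 genes per library. The submitters' processing notes name Cell Ranger 2.0.1, Seurat 2.2.1 and GRCm38, whereas the matrix headers give software version 3.1.0, and which version made the counts is not settled here. Libraries were grouped by the transgene and tissue in their labels, and mice by the animal number in their titles.

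The stress-state cells, the comparison and the gene lists were chosen with earlier results of these data known. Cells were selected by the rule given at the start of the results, and no cluster was used. Counts were summed per library and class, and genes were fitted in edgeR 4.0.16 (R 4.3.3; TMM, filterByExpr, quasi-likelihood test, library as a block) with Benjamini-Hochberg adjustment over all genes tested and a threshold of 0.05. Atf3, Plk2, Hspb1, Krt8 and the genes of the gate stayed in the totals and out of the test. The change was also fitted per group, with contrasts between groups. Shares used cells thinned to 1500 UMIs and exact permutation tests over libraries or mice (scipy 1.17.1). Both tissues of a mouse were averaged for the 5 readouts per cell class, whose p-values were adjusted together and of which 1 is not reported here. Each library of the gene comparison counted as a replicate, although some come from the same mouse, and sums per mouse were an alternative. Wilson 95% intervals cover counting error only, and a share of 0 was given the limit that 3 counts allow.

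The rule for named genes took the 15 called genes with the largest increase and the 15 with the largest decrease, with at least 20 CPM in either class, the same direction in at least 9 of 10 libraries and no immunoglobulin or T cell receptor segments. It also took up to 4 called members of each of 17 lists and up to 5 called genes per difference between groups. Other genes named were chosen after their values were seen. The scripts were tested on counts with known changes before use.

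Alternatives were RLE scaling, no filter on low counts, DESeq2 1.42.0, cells matched on UMIs, all 3 transcripts, at least 1 transcript, at most 5% mitochondrial UMIs, at least 50 cells, sums per mouse, models with and without a block, each library or mouse left out, and the highest Scrublet scores left out (scanpy 1.11.5; 0.8% of barcodes for each 1000). Promoters are the RefSeq windows of GRCm38.p6, matched by symbol or synonym for 81.1% of genes tested and for 15 of 18 heat shock genes. Cell cycle phase, variants and T cell states were not analysed here.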

Additional observations from a re-analysis of the deposited data

Results flagged for a closer look

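In 12 groups of 4 to 10 libraries a single library lay far from the others in 2 cases, where chance flags about 1 group in 20. The thinned share of stress-state cells was 5.63% in Eµ-PRMT5 spleen 2, where the other 4 spleens of that genotype held between 0.566% and 1.12%. The share of cells carrying the leading Ighv gene was 14.1 points lower in stress-state cells than in cells with none in Eµ-TCL1 spleen 3 (a difference of -14.1), against -1.51 to 0.913 in the other Eµ-TCL1 spleens. In spleen 3 it was carried by 19.4% of stress-state cells and 33.5% of cells with none. In spleens 1, 2 and 4 it was carried by 99.2%, 99.4% and 98.5% of cells with none. The gene was chosen in the cells with none, so this flag is not by itself evidence of a clonal difference.

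The change of 3 genes differed between groups by the test of the difference. Nr4a1 had a difference of -1.82 on the log2 scale for spleens with PRMT5 alone against those with TCL1 alone, called in 12 of its 22 alternatives, in which the adjusted p ran up to 0.411. Grasp had a difference of -2.75 for double transgenic against Eµ-TCL1 spleens, and Ccr9 one of 3.06. The causes were not tested.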

How the results depend on the processing

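Of 2282 values of the 88 named genes under the alternatives, 2161 kept their direction and their side of the threshold, 118 lost the call and 3 reversed. The reversed ones were Cdkn1a (-0.0472), Bcl2a1b (-0.0247) and Mcm3 (-0.266) in cells with all 3 transcripts, a class that only 5 libraries of 3 mice could give. Genes called within library numbered 2488 to 2968 with a library left out, 1086 (673 higher, 413 lower) in cells with all 3 transcripts and 292 (250 higher, 42 lower) with no replicate block, that is without the library term. Without a filter on low counts 1232 genes were higher and 1619 lower.

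Shares of stress-state cells reversed in direction in several settings, none past the threshold. The difference between lymph node and spleen became -0.0728 points with all 3 transcripts, -1.72 with at least 1 and -0.170 at 5% mitochondrial UMIs, and ran from -1.10 to 0.810 with a mouse left out, -0.141 without M1040. Eµ-PRMT5 against Eµ-TCL1 spleens became 0.141 points with at least 1 transcript and ran from -2.90 to -0.470 with a library left out. The corresponding ranges were -1.02 to 0.489 for Eµ-PRMT5/TCL1 against Eµ-PRMT5 spleens (0.489 without Eµ-PRMT5 spleen 2), -3.33 to -0.938 against Eµ-TCL1 spleens and -6.58 to -1.55 for the lymph nodes.

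The cycling difference reversed to -1.14 points in matched cells, was 2.73 (adjusted p = 0.0497, exact sign-flip permutation) over libraries in place of mice, and ran from 1.56 to 2.68 with a mouse left out. The Ighv difference reversed to 1.74 points with all 3 transcripts and ran from -9.51 to -5.74. The mitochondrial and ribosomal differences ran from -0.660 to -0.584 and from -2.68 to -1.85, and were -0.514 and -0.477 with all 3 transcripts, where the smallest possible p is 0.25.

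For the differences between groups, in the order Eµ-PRMT5 against Eµ-TCL1 spleens, Eµ-PRMT5/TCL1 against Eµ-TCL1 spleens, Eµ-PRMT5/TCL1 against Eµ-PRMT5 spleens and the lymph nodes, the calls were 0, 2, 0 and 0 with RLE scaling, 79, 64, 59 and 28 without a filter, 3, 2, 0 and 0 in matched cells and 3, 6, 0 and 0 by DESeq2. With a library left out they ran from 0 to 4, 0 to 2, 0 to 2 and 0 to 0. With the replicate block they were 2, 7, 3 and 0. For each difference, libraries of the same number were paired between the genotypes compared. Their deviations correlated at -0.138 to 0.115 over 5515 genes, and 2 of 4, 1 of 3, 1 of 3 and 0 of 2 pairs were best with their own number. So few pairs cannot tell whether a number marks a batch. The causes of these changes were not tested. Depth limits the stress-state sums of the smallest libraries, which rest on 22 to 48 cells in 9 of 17.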
